A study of Mus musculus with 19 samples.

Results

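The 6 genes described here are Hba-a1, Nfe2, Gp5, Itga2b, Vwf and F2r, grouped here as genes of the erythroid and megakaryocyte lineages of blood. They were taken by name: every array probe whose single gene symbol is one of the 6 was kept, which gave 13 of 20205 probes and 6 of 9834 genes with a symbol. Hba-a1 had 6 probes, Vwf had 3, and the other genes had 1 each. Expression was measured on 19 two-colour arrays in FDCPmix, a line of mouse blood progenitors kept growing by interleukin-3, which can mature along more than 1 lineage. Each array compared the RNA of a treated FDCPmix culture, its own RNA, with a second RNA. One set of 4 arrays carried treated cells with no stated time against non-treated FDCPmix cells. The time course carried treated cells at 3 h, 7 h and 12 h (4 arrays each) and 23 h (3 arrays), against treated cells at 0 h, so the 0 h cells are also treated cells by their label. What the treatment was is not stated in the labels. Replicate 2 at 23 h was not analysed here.

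The labels also call the material an ES cell line, which they do not explain. They name no transgene, dose or clone. Replicates 1 and 2 of each 4-array group carried the own RNA in Cy5, and replicates 3 and 4 carried it in Cy3. At 23 h it was in Cy5 on replicate 1 and in Cy3 on replicates 3 and 4. Nothing in the labels says that the replicates were separate cultures, so p-values measure the spread between these arrays, which may be technical. The 0 h cells were measured only as the second RNA of each array, so their own spread does not enter a test against 0 h.

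All values below are deposited log ratios, read as log2 of the own RNA over the second RNA after each array was centred on its median. Neither the base and numerator of the ratio nor its normalization is given in the sources used here. "Above 0" therefore means higher in the treated RNA only if that RNA is the numerator. Ratios show change and not level, so the presence of the lineage markers in FDCPmix cells could not be checked. In a culture, fewer cells of a type and less RNA per cell also cannot be told apart.

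The sign of 2 arrays is in doubt. On 18 of the 19 arrays an extreme value, repeated on 8 to 29 spots and set to missing here, was positive where the own RNA was the Cy5 channel and negative where it was the Cy3 channel. On 7 h replicate 4 it had the other sign. Replicate 3 at 23 h had an extreme value of the sign that its dye calls for. Its deposited median was 0.233, against -0.012 to 0.024 on the other arrays, which does not by itself bear on the sign. S100a9, a neutrophil calcium-binding protein, was below 0 on every array except these 2, where it stood at 0.58 and 0.58. Some values below are also given with every Cy3 array turned round, as a check only. With that change S100a9 would lie below 0 in Cy5 and above 0 in Cy3 on all arrays but these 2. Values are from all arrays unless said otherwise, and values without both arrays are given for the 6 genes, the counts and the gene lists. Without them, 23 h kept only replicate 1 in Cy5 and replicate 4 in Cy3. The 23 h values then rest on these alone, with a spread estimated over all times. The treated arrays also varied more, with an SD over spots of 0.619 to 0.642, against 0.235 to 0.36 in the time course, so the 2 sets were fitted apart.

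Red cells and megakaryocytes descend from a common progenitor and share transcription factors of the GATA and NF-E2 families. Red cells fill with haemoglobin, a tetramer of alpha and beta chains, of which Hba-a1 encodes an alpha chain. Nfe2 encodes the haematopoietic subunit of NF-E2, which pairs with a small Maf protein, binds the core TGAGTCA and is needed for platelet release from megakaryocytes. Gp5 is a subunit of the platelet receptor for von Willebrand factor, and Itga2b is the alpha chain of the platelet fibrinogen receptor, also called CD41. Vwf is the adhesive glycoprotein of platelet granules and endothelium, and F2r is the thrombin receptor PAR1, which endothelial cells can carry.

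On build GRCm38.p6 (RefSeq), Hba-a1 lies on chromosome 11 from 32283672 to 32284486 and Itga2b on chromosome 11 from 102453297 to 102469883. Vwf lies on chromosome 6 from 125552948 to 125686679, and F2r on chromosome 13 from 95601780 to 95618466. Nfe2 lies on chromosome 15 from 103248212 to 103258403, and Gp5 on chromosome 16 from 30307685 to 30310781. Probe sequences were not used here, so the part of each gene that a probe reads is not stated. A near-identical alpha globin copy, Hba-a2, could bind the same probes, so the Hba-a1 values are uncertain between the 2 copies.

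RefSeq promoters were matched for 4 of the 6 genes, and are shown because erythroid and platelet genes are known for GATA and NF-E2 sites, with Nfe2 itself among the genes measured. Each is the 250 bases before the start site, 5' to 3' on the gene's strand. Capitals mark matches, on either strand, to the GATA motif GATAA, the NF-E2 and AP-1 core TGAGTCA, the box CCAAT and the box TATAA. The matches in these 4 do not overlap. They are chr11:32283422-32283671 (plus strand) for Hba-a1, chr16:30310782-30311031 (minus strand) for Gp5, chr11:102469884-102470133 (minus strand) for Itga2b and chr13:95618467-95618716 (minus strand) for F2r.
Hba-a1: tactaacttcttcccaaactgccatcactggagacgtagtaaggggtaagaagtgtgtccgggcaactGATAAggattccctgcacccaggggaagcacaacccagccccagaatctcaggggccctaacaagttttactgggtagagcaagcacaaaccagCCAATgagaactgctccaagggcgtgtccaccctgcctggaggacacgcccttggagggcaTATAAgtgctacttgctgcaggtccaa
Gp5: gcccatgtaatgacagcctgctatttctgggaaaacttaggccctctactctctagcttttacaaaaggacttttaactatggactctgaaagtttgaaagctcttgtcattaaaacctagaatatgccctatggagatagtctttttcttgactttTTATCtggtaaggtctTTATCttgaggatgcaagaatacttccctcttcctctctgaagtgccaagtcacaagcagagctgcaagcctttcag
Itga2b: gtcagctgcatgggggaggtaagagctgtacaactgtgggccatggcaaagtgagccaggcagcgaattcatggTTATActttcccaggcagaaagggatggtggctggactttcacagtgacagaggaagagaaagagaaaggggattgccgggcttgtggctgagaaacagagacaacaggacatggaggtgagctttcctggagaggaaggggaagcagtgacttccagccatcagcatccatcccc
F2r: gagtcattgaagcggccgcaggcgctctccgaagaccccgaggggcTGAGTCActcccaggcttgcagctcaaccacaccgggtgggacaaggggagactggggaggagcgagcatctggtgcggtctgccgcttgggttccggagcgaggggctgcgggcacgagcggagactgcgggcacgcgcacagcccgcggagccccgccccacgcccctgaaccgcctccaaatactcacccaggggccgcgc

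The Hba-a1 promoter held GATAA 182 bases before the start, CCAAT at 88 and TATAA at 27. Gp5 held GATAA on the other strand 2 times, at 93 and 77 bases before the start. F2r held the TGAGTCA core at 204, in the promoter with the highest GC content of the 4 (70.8%, against 40.8% for Gp5). Itga2b held TATAA on the other strand at 176 and none of the other 3 motifs. Over 32851 RefSeq promoters of the same length, 22.6% held GATAA, 4.46% held TGAGTCA, 33.8% held CCAAT and 22.8% held TATAA. These are matches of letters and not shown sites.

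None of the 6 genes passed the test in any comparison. limma with Benjamini-Hochberg adjustment over all features gave the 6 genes adjusted p-values of 0.793 to 0.996 in the treated cells. They were 0.431 to 0.919 at 3 h, 0.658 to 0.994 at 7 h, 0.687 to 1 at 12 h and 1 for each gene at 23 h. The share of features called at an adjusted p under 0.05 was 0% in the treated cells, at 3 h, at 7 h and at 23 h. It was 0.0186% at 12 h (3 of 16089) and 0% in the mean of the 4 times, late against early, and 23 h against 3 h.

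At an unadjusted p under 0.05 the 6 genes were counted against the same share of all features. In the treated cells 0 of 6 passed, where 6.21% of features did (988 of 15915), and at 3 h 2 of 6 passed (Hba-a1 and Itga2b, both below 0), where 10.8% did. At 7 h 1 of 6 passed (Hba-a1), against 7.09% of features, and at 12 h 1 of 6 (Nfe2), against 6.25%. At 23 h 0 of 6 passed, against 3.36%. Over the mean of the 4 times 1 of 6 passed (Hba-a1), against 7.26%. Late against early it was 1 of 6 (Nfe2), against 6.15%, and at 23 h against 3 h it was 0 of 6, against 5.49%. With both arrays in doubt left out, 2 of 6 passed at 3 h, against 12.5% of features, and 1 of 6 at 7 h (Hba-a1), against 9.61%. At 12 h it was then 1 of 6, against 8.02%, and at 23 h 1 of 6 (F2r), against 8.68%. Over the mean of the 4 times it was 1 of 6, against 12.4%. Late against early it was 0 of 6, against 9.63%, and at 23 h against 3 h 0 of 6, against 9.59%. The median estimate over the 6 genes was -0.03 in the treated cells, -0.07 at 3 h, 0.01 at 7 h, -0.05 at 12 h and -0.03 at 23 h. The median over all features lay between -0.002 and 0.009 in these groups.

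**Figure D1:**
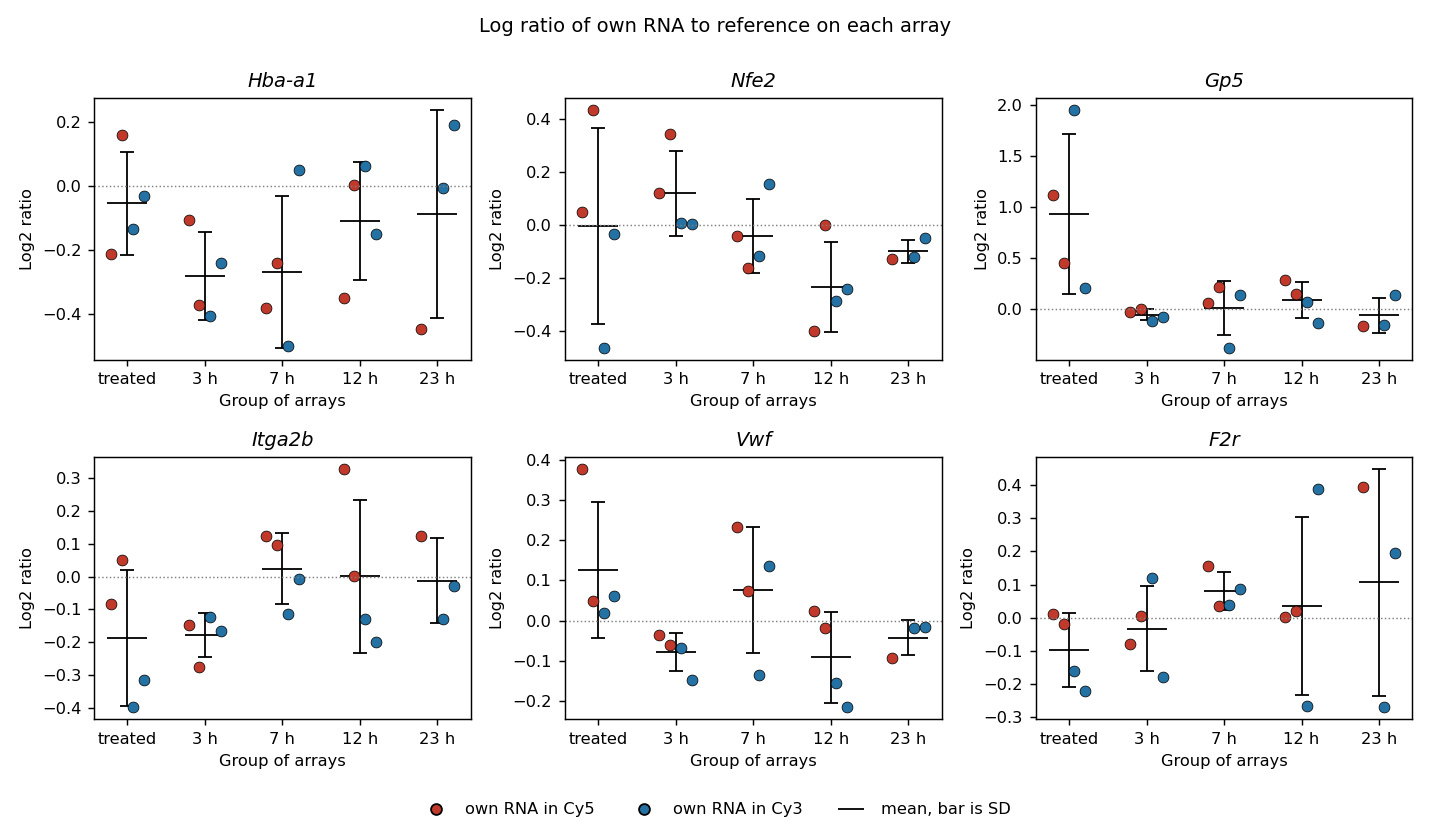
Log2 ratio of own RNA to second RNA (vertical axis, a scale of its own in each panel) for each gene on each array, by group (horizontal axis). Points are arrays, coloured by the dye of the own RNA. Lines are group means and bars are the SD (n = 4, and n = 3 at 23 h). Gp5 in the treated cells reached 1.96, and Hba-a1 lay below 0 on 11 of the 15 time-course arrays.

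Hba-a1, the alpha globin chain, was the gene of the 6 furthest below 0 over the time course. At 3 h its ratios were -0.11, -0.37, -0.41 and -0.24 on replicates 1 to 4, a mean of -0.28 ± 0.14 (SD, n = 4). At 7 h they were -0.38, -0.24, -0.50 and 0.05, a mean of -0.27 ± 0.24 (SD, n = 4). All 4 arrays at 3 h and 3 of 4 at 7 h were thus below 0, and the exception was 7 h replicate 4, whose sign is in doubt. With the Cy3 arrays turned round the Hba-a1 estimate was above 0 at 3 h (0.04) and stayed below 0 at 7 h (-0.04).

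At 12 h Hba-a1 stood at -0.35, 0.003, 0.06 and -0.15, a mean of -0.11 ± 0.18 (SD, n = 4). At 23 h it stood at -0.45, -0.0062 and 0.19 on replicates 1, 3 and 4, a mean of -0.09 ± 0.33 (SD, n = 3). The late arrays lay on both sides of 0 and overlapped the early ones. In the treated cells the values were -0.21, 0.16, -0.13 and -0.03, a mean of -0.05 ± 0.16 (SD, n = 4), also on both sides of 0.

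The limma estimate for Hba-a1 over the mean of the 4 times was -0.19 (SE 0.05, 95% interval -0.31 to -0.08, adjusted p = 0.597). Of all features, 3.08% lay further from 0 in that comparison. It was the smallest adjusted p of the 6 genes there, and it missed the threshold. Without both arrays in doubt the estimate was -0.22 (adjusted p = 0.0949), and with the signs of both changed it was -0.20 (adjusted p = 0.0572). With every Cy3 array turned round it was -0.09 (adjusted p = 0.489). Late minus early, the difference was 0.17 (SE 0.11, 95% interval -0.07 to 0.40, adjusted p = 0.843).

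The 6 Hba-a1 probes did not carry equal spread. Probe 15327 had an SD over the 19 arrays of 0.924, with values between -2.92 and 0.97, against 0.177 to 0.236 for the other 5 probes. At 3 h and 7 h, 41 of the 42 probe values outside 7 h replicate 4 were below 0, and on 7 h replicate 4 only 1 of 6 was, probe 15327. The probes read the same cDNA on each array, so they are not independent of each other.

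At 12 h 18 of 24 Hba-a1 probe values were below 0, at 23 h 7 of 18 were, and in the treated cells 13 of 24 were. Without probe 15327 the Hba-a1 mean at 3 h was -0.14, -0.27, -0.16 and -0.12 on the 4 arrays, closer together than with it. The estimate was then -0.17 at 3 h (adjusted p = 0.442), -0.15 at 7 h (adjusted p = 0.691) and -0.11 over the 4 times (adjusted p = 0.641). At those times the estimate with all 6 probes was over 1.5 times as large. At 12 h it was smaller with that probe (-0.11) than without it (-0.15), and at 23 h it was -0.11 with it and 0.02 without it, on the other side of 0. The value of -0.45 on 23 h replicate 1 also came from it: that probe stood at -2.92 there, and the mean of the other 5 was 0.05.

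**Figure D2:**
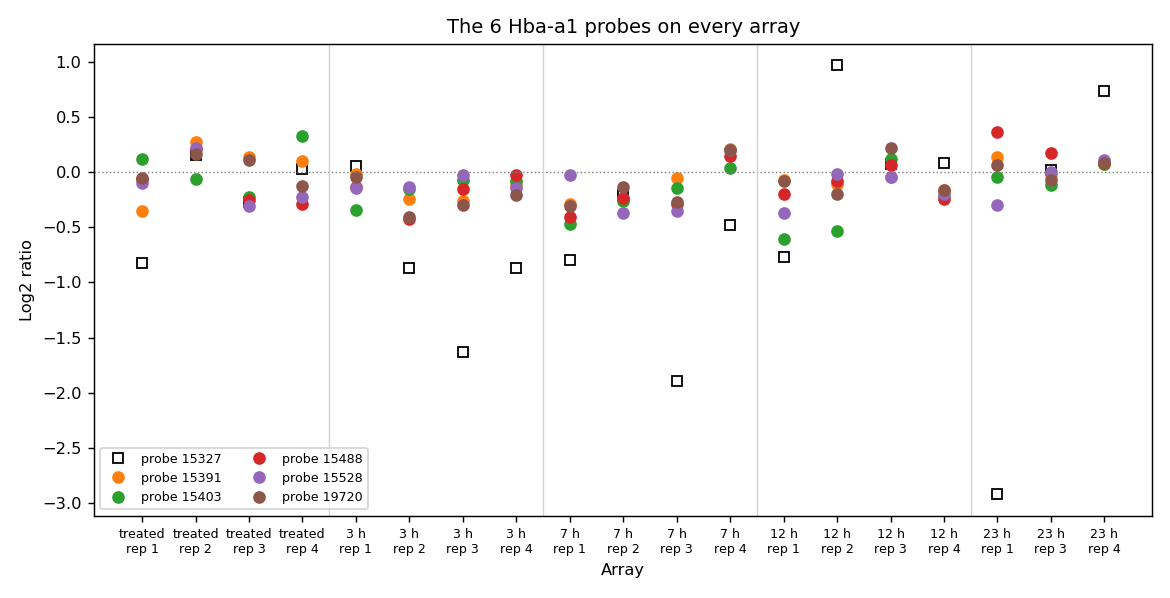
Log2 ratio (vertical axis) of each of the 6 Hba-a1 probes on every array (horizontal axis, grouped by treated cells and time). Circles are the 5 probes that lie close together, and open squares are probe 15327, which runs from -2.92 to 0.97.

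Nfe2, the transcription factor of late erythroid and megakaryocyte genes, stood above 0 at 3 h and below 0 later. At 3 h its ratios were 0.12, 0.34, 0.009 and 0.004, a mean of 0.12 ± 0.16 (SD, n = 4). At 12 h they were -0.40, 0.002, -0.29 and -0.24, a mean of -0.23 ± 0.17 (SD, n = 4). Every 3 h array was above every 12 h array, although the lowest 3 h value and the highest 12 h value both lay at about 0.

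At 7 h Nfe2 stood at -0.04, -0.16, -0.12 and 0.16, with 7 h replicate 4 as the only array above 0. At 23 h it stood at -0.13, -0.12 and -0.05, a mean of -0.10 ± 0.04 (SD, n = 3), with all 3 arrays below 0. The treated cells gave 0.05, 0.43, -0.46 and -0.03, a mean of -0.003 ± 0.37 (SD, n = 4). These 4 lay above 0 in Cy5 and below 0 in Cy3, so the dye and the sign ran together.

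The limma estimate for Nfe2 at 12 h was -0.23 (SE 0.075, 95% interval -0.39 to -0.07, adjusted p = 0.687). Late minus early it was -0.20 (SE 0.08, 95% interval -0.37 to -0.03, adjusted p = 0.788), and 23 h minus 3 h it was -0.21 (SE 0.12, adjusted p = 0.868). The 23 h minus 3 h difference for Nfe2 was -0.21 without both arrays in doubt and -0.13 with their signs changed, where 23 h replicate 3 would lie above 0. With the signs of both arrays in doubt changed, the late minus early difference was -0.12 (adjusted p = 0.523), and without both arrays it was -0.16 (adjusted p = 0.564). With the Cy3 arrays turned round, the estimate at 12 h was 0.03 and the late minus early difference was -0.01.

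Single values were also compared between times by an exact permutation test over arrays, two-sided, for the 6 genes and the 6 pairs of times, 36 comparisons in all. Nfe2 at 12 h minus 3 h differed by -0.35 (exact p = 0.0286, adjusted p = 0.514 over the 36). Itga2b at 7 h minus 3 h differed by 0.20 with the same exact p-values. Both p-values are the smallest that 4 arrays against 4 can give. These were the 2 of 36 pairs with an exact p under 0.05, and neither held after adjustment.

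Gp5, the platelet glycoprotein, was the gene furthest from 0 in the treated cells. Its ratios there were 1.12, 0.45, 1.96 and 0.21, a mean of 0.93 ± 0.78 (SD, n = 4). All 4 arrays were above 0, and the highest and the lowest were both Cy3 arrays. The limma estimate was 0.93 (SE 0.34, 95% interval -0.02 to 1.89, adjusted p = 0.793), and 1.95% of features lay further from 0.

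The size of the Gp5 value depended on single arrays: it was 0.50 without treated replicate 3 (adjusted p = 0.902) and 1.37 without replicate 4 (adjusted p = 0.78). Fitted together with the less variable time-course arrays, the same estimate had an adjusted p of 0.0162, in a fit that called 773 features in the treated cells. With the Cy3 arrays turned round it was -0.15. Within dyes, the means were 0.78 in Cy5 and 1.08 in Cy3 (2 arrays each).

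In the time course the Gp5 arrays lay on both sides of 0 at each time. It stood at -0.03, 0.001, -0.12 and -0.08 at 3 h, and at 0.06, 0.21, -0.38 and 0.14 at 7 h. At 12 h it stood at 0.28, 0.15, 0.07 and -0.14, and at 23 h at -0.17, -0.15 and 0.14. Its mean over the 4 times was 0 (SE 0.045, 95% interval -0.10 to 0.10, adjusted p = 1). All 4 treated arrays lay above the 3 h arrays, but the 2 sets have different second RNAs and the difference was not tested.

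Itga2b, the integrin chain that marks early megakaryocyte and progenitor cells, was below 0 on all 4 arrays at 3 h. They read -0.15, -0.28, -0.12 and -0.17, a mean of -0.18 ± 0.07 (SD, n = 4). No other group of Itga2b arrays lay on 1 side of 0. The limma estimate at 3 h was -0.18 (SE 0.07, 95% interval -0.32 to -0.03, adjusted p = 0.431), and it was -0.11 without 3 h replicate 2 (adjusted p = 0.942).

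Later Itga2b lay around 0. At 7 h it stood at 0.12, 0.10, -0.12 and -0.006, at 12 h at 0.33, 0.002, -0.13 and -0.20, and at 23 h at 0.12, -0.13 and -0.03. At these 3 times the Cy5 arrays lay above 0 and the Cy3 arrays below it, on every array. With every Cy3 array turned round, all Itga2b arrays at these 3 times would lie above 0. The 3 h arrays would then lie on both sides of 0, so the Itga2b course depends on which RNA is the numerator. The treated cells gave -0.08, 0.05, -0.40 and -0.32, a mean of -0.19 ± 0.21 (SD, n = 4), with a mean of -0.02 in Cy5 and -0.36 in Cy3. The limma estimate there was -0.19 (SE 0.10, 95% interval -0.46 to 0.09, adjusted p = 0.807), and 23 h minus 3 h it was 0.19 (SE 0.10, adjusted p = 0.868). Without both arrays in doubt the 23 h minus 3 h difference for Itga2b was 0.23 (adjusted p = 0.59).

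Vwf, the ligand that tethers platelets through the receptor that holds Gp5, was below 0 on all 4 arrays at 3 h by small amounts. They read -0.04, -0.06, -0.07 and -0.15, a mean of -0.08 ± 0.05 (SD, n = 4). At 7 h it stood at 0.23, 0.07, -0.14 and 0.14, a mean of 0.08 ± 0.16 (SD, n = 4). At 12 h it stood at 0.02, -0.02, -0.16 and -0.22, and at 23 h at -0.09, -0.02 and -0.02. The 7 h values overlapped those at the other times.

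In the treated cells Vwf stood at 0.38, 0.05, 0.02 and 0.06, a mean of 0.13 ± 0.17 (SD, n = 4), with replicate 1 apart from the other 3. Probe 11452 carried that value, at 0.95, against 0.02 and 0.17 for probes 19109 and 19110 on the same array. Without replicate 1 the Vwf estimate was 0.04, against 0.13 with it (adjusted p = 0.835). In the time course the 3 probes gave similar estimates at each time, between -0.12 and 0.11. The Vwf estimate over the 4 times was -0.03 (SE 0.03, 95% interval -0.09 to 0.03, adjusted p = 0.872).

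F2r, the thrombin receptor, was above 0 on 11 of 15 time-course arrays, with a mean over the 4 times of 0.05 (SE 0.05, 95% interval -0.07 to 0.17, adjusted p = 0.889). At 3 h it stood at -0.08, 0.006, 0.12 and -0.18, and at 7 h at 0.16, 0.04, 0.04 and 0.09, above 0 on all 4 arrays. At 12 h it stood at 0.003, 0.02, -0.27 and 0.39, and at 23 h at 0.40, -0.27 and 0.20. The late arrays spread over more than the whole range of the early ones.

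The F2r value of -0.27 at 23 h came from replicate 3, whose sign is in doubt, and without it 23 h had only replicates 1 and 4. The 23 h estimate was 0.12 (adjusted p = 1) with both arrays in doubt, 0.30 (adjusted p = 0.546) without them and 0.30 (adjusted p = 0.264) with their signs changed. In the treated cells F2r stood at 0.01, -0.02, -0.16 and -0.22, a mean of -0.10 ± 0.11 (SD, n = 4, adjusted p = 0.847 in limma).

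**Figure D3:**
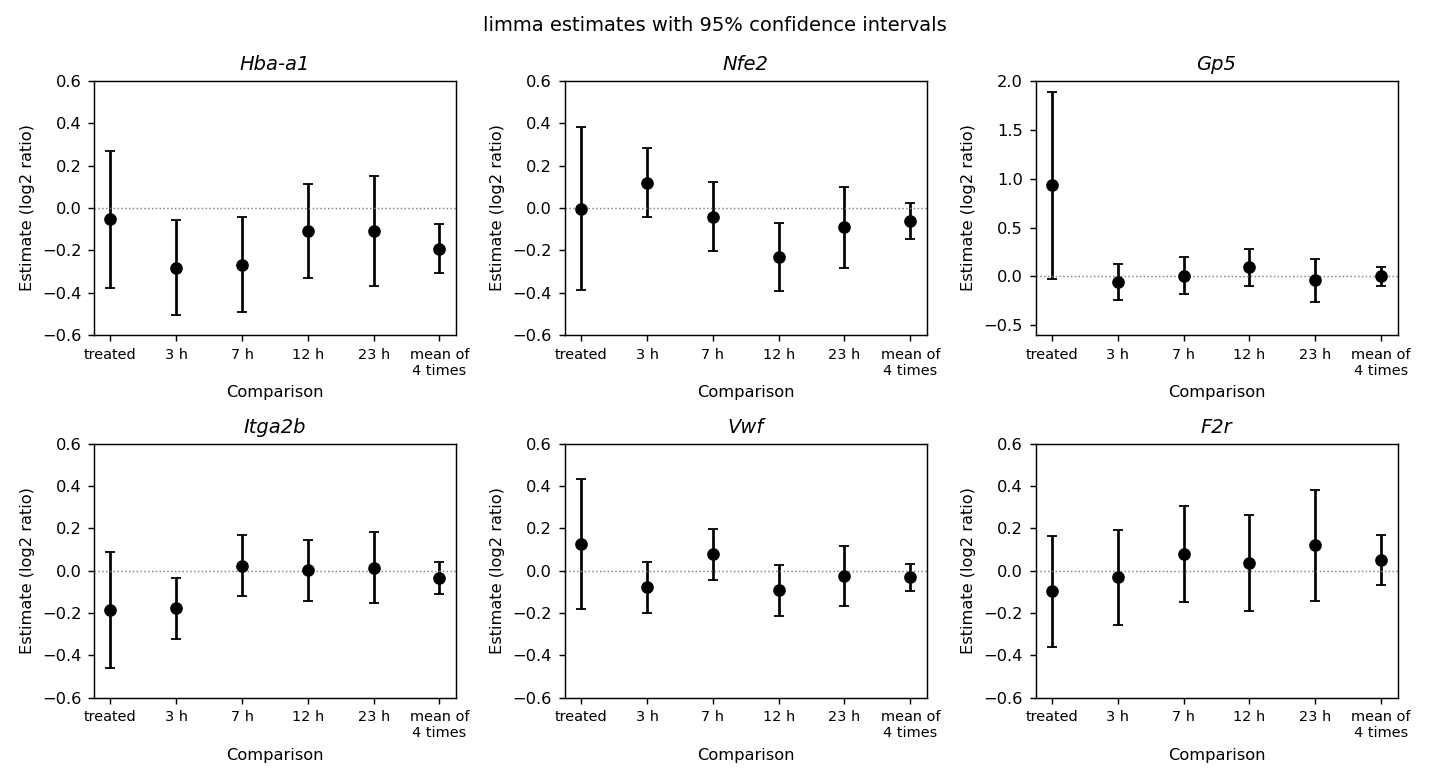
limma estimates (vertical axis, log2 ratio) with 95% confidence intervals for each gene in the treated cells, at the 4 times and in the mean of the 4 times (horizontal axis). The Gp5 panel has a longer axis than the other 5. The intervals that leave out 0 are those of Hba-a1 at 3 h, 7 h and in the mean, Nfe2 at 12 h and Itga2b at 3 h, before adjustment over all features.

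In order of their estimates at 3 h, the genes ran Hba-a1 (-0.28), Itga2b (-0.18), Vwf (-0.08), Gp5 (-0.06), F2r (-0.03) and Nfe2 (0.12). At 12 h the order was Nfe2 (-0.23), Hba-a1 (-0.11), Vwf (-0.09), Itga2b (0.001), F2r (0.04) and Gp5 (0.09). Neighbours in each order differed by no more than the wider of their 95% half-widths, so the order among neighbours is not settled. Nfe2 stood last in the first order and first in the second, and these are the times at which it was highest and lowest. At 7 h Hba-a1 (-0.27) stood lower than Nfe2 (-0.04), as it did at 23 h (-0.11 against -0.09).

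Without both arrays in doubt, the 7 h estimates were -0.36 for Hba-a1, -0.12 for Nfe2, -0.06 for Gp5, 0.009 for Itga2b, 0.04 for Vwf and 0.07 for F2r. At 23 h they were -0.13 for Hba-a1, -0.09 for Nfe2, -0.02 for Gp5, 0.05 for Itga2b and -0.06 for Vwf. The adjusted p-values of these estimates lay between 0.305 and 0.996. At 7 h the Gp5 estimate had the other sign in this fit (0.006 with all arrays).

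The rest of the erythroid genes were read beside Hba-a1. Of a list of 52 globin, haem, membrane and regulator genes, 26 were on the array by name, and 0 of those tested passed in any of the 5 groups, in either direction. At 3 h 19 of 26 were above 0 with a median of 0.06, where the median of all features was 0. In the treated cells 12 of 25 were above 0 with a median of -0.008, at 7 h 14 of 26 with a median of 0.02, at 12 h 16 of 26 with a median of 0.02, and at 23 h 17 of 26 with a median of 0.03.

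Klf1, the erythroid Kruppel-like factor, stood at -1.15, -0.58, 0.39 and -0.76 in the treated cells (estimate -0.53, SE 0.25, adjusted p = 0.803). Car1, a red cell carbonic anhydrase, stood at 0.60, 0.06 and 0.40 at 23 h (estimate 0.38, SE 0.11, adjusted p = 1). Car1 was above 0 on all 3 arrays there, and was chosen at 23 h after its values were seen. Kel, a red cell blood group protein also chosen after its values were seen, lay the other way at 23 h (estimate -0.29, SE 0.13, adjusted p = 1). Leaving out both arrays in doubt, Car1 stood at 0.50 (adjusted p = 0.169) and Kel at -0.40 (adjusted p = 0.445) at 23 h, on replicates 1 and 4 only. The Car1 mean over the 4 times was 0.14 (adjusted p = 0.645). Tal1, a regulator of early blood and erythroid cells, had a mean of 0.12 (adjusted p = 0.664). Without both arrays in doubt Tal1 passed over the 4 times, at 0.18 (adjusted p = 0.00593), where 2.21% of features were called. It then also passed at 7 h, at 0.35 (adjusted p = 0.0223), where 0.478% of features were called. With all arrays Tal1 did not pass at 7 h (0.16, adjusted p = 0.755). Replicates 1 to 4 stood at 0.355, 0.346, 0.39 and -0.43 there, so the 7 h call depends on leaving out replicate 4. In simulations where each time had its own spread, the time-course fit gave more false calls than the threshold. No other erythroid gene of the list passed without both arrays in doubt, and the list median was 0.03 at 7 h and 0.04 at 23 h. Car2, another carbonic anhydrase, had a mean over the 4 times of 0.11 (adjusted p = 0.656).

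Hba-x, the embryonic alpha-like globin, was chosen after its values were seen. At 7 h it stood at -0.51, -0.43, -0.33 and -0.26, all below 0, with an estimate of -0.38 (SE 0.07, adjusted p = 0.377), or -0.42 without 7 h replicate 4 and 23 h replicate 3 (adjusted p = 0.0661). At 3 h it stood at 0.15, 0.14 and 0.18 on the 3 arrays with a value, and no treated estimate was made because 2 of the 4 treated arrays had no value. The 3 h and 7 h arrays of Hba-x did not overlap, and the 7 h array in doubt fell on the same side as the other 3.

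Of 43 other megakaryocyte and platelet genes, 22 were on the array by name, and 0 of those tested passed in either direction in any of the 5 groups. Their median was -0.03 in the treated cells, 0.06 at 3 h, -0.015 at 7 h, -0.02 at 12 h and 0.015 at 23 h. Alox12, the platelet lipoxygenase, stood at 0.27, 0.14, 0.70 and 0.64 in the treated cells (estimate 0.44, SE 0.10, adjusted p = 0.792). It was above 0 on all 4 arrays, as Gp5 was. Megakaryocyte genes that passed also numbered 0 without both arrays in doubt, and the median was -0.025 at 7 h and -0.005 at 23 h.

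Treml1, a receptor of platelet granules, stood at -0.27, -0.40, -0.39 and -0.36 in the treated cells (estimate -0.36, SE 0.10, adjusted p = 0.793), below 0 on all 4. Clec1b, the platelet receptor CLEC-2, stood at -0.97, -0.31, -0.15 and -0.27 there (estimate -0.42, adjusted p = 0.793). At 12 h Clec1b stood at -0.68, -0.51, -0.06 and -0.18 (estimate -0.36, SE 0.09, adjusted p = 0.598). Platelet genes in the treated cells thus lay on both sides of 0.

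Beside Nfe2, 7 of 14 genes of its small Maf, CNC and Bach partners and relatives were on the array by name, and 0 passed in either direction in any of the 5 groups. Nfe2l1, a relative of Nfe2, stood at -0.11, -0.26, -0.28 and -0.18 at 3 h, all below 0, with a mean over the 4 times of -0.10 (SE 0.03, adjusted p = 0.641). Mafg, a small Maf partner of NF-E2, had a mean of -0.06 over the 4 times (adjusted p = 0.799). In the treated cells Keap1, the cytoplasmic anchor of the related factor Nrf2, stood at 0.13 (adjusted p = 0.82).

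Of the thrombin and von Willebrand factor genes, 14 were on the array by name, and of those that activate the platelet integrin, 15 were. In both lists 0 passed in either direction in any of the 5 groups, with or without both arrays in doubt. Thrombin and von Willebrand factor genes above 0 in the treated cells numbered 6 of 14, with a median of -0.03 and a range of -0.56 to 1.27. Of the integrin genes 4 of 14 were above 0 there, with a median of -0.05 and a range of -0.54 to 1.47. F10, coagulation factor X, stood at -0.66, -0.31, -0.53 and -0.73 in the treated cells (estimate -0.56, SE 0.12, adjusted p = 0.792). F2rl3, the thrombin receptor PAR4, had a mean over the 4 times of 0.10 (SE 0.04, adjusted p = 0.647). Tln1, talin, which links integrins to actin, stood at -0.37, -0.82, -0.43 and -0.54 in the treated cells (estimate -0.54, SE 0.13, adjusted p = 0.792). F10 and Tln1, the lowest of their lists, lay below 0 on all 4 treated arrays.

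Markers of other cell types were read beside these values. Of 13 neutrophil genes, 12 lay below 0 over the 4 times, with a median of -0.21, 8 had an unadjusted p under 0.05 and 0 passed after adjustment. Of all features 7.26% had such a p, and 52.3% were above 0. The neutrophil median was -0.22 in the treated cells, -0.12 at 3 h, -0.12 at 7 h, -0.35 at 12 h and -0.32 at 23 h. The neutrophil median without both arrays in doubt was -0.25 at 7 h and -0.71 at 23 h. Neutrophil genes then passed below 0: 3 of 13 at 7 h, where 0.478% of features were called, 5 of 13 at 12 h (0.261%), 8 of 13 at 23 h (0.368%) and 9 of 13 over the 4 times (2.21%). S100a9 was among the values that put the arrays in doubt, so these counts are not independent of leaving them out. The 23 h count rests on replicates 1 and 4 only. In simulations where each time had its own spread, the time-course fit gave more false calls than the threshold. S100a9 stood at -0.39 (adjusted p = 0.792) and the protease Elane at -0.40 (adjusted p = 0.793) in the treated cells. The part of the neutrophil genes in the values of the 6 genes was not tested. The 14 progenitor genes had medians of -0.03 in the treated cells and between -0.003 and 0.001 at the 4 times, with 0 passed in either direction. Leaving out both arrays in doubt, 3 of 14 passed over the 4 times, where 2.21% of features were called. They were Tal1 above 0 and Csf2rb and Csf2rb2, chains of cytokine receptors, below 0. Csf2rb stood at 0.83 on 7 h replicate 4, against -0.20, -0.37 and -0.49 on the other 7 h arrays. Csf2rb2 stood at 0.56 on 23 h replicate 3, against -0.66 and -0.44 on the other 23 h arrays. Of 12 endothelial genes, read because endothelial cells can also express Vwf and F2r, 0 passed and the median lay between -0.009 and 0.04 in the 5 groups. In the 5 groups the medians ran from -0.15 to 0.007 for 6 monocyte genes, from -0.15 to -0.01 for 4 mast cell and basophil genes, from -0.13 to 0.03 for 6 lymphoid genes and from -0.10 to 0.10 for 9 embryonic stem cell genes, with 0 passed in each list. Without both arrays in doubt, 1 monocyte gene (Lyz2) and 2 mast cell and basophil genes (Cpa3 and Mcpt8) passed below 0 over the 4 times, and 0 endothelial, lymphoid or stem cell genes did. Lyz2, Cpa3 and Mcpt8 each lay above 0 on both arrays in doubt, so these calls depend on leaving them out.

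**Figure D4:**
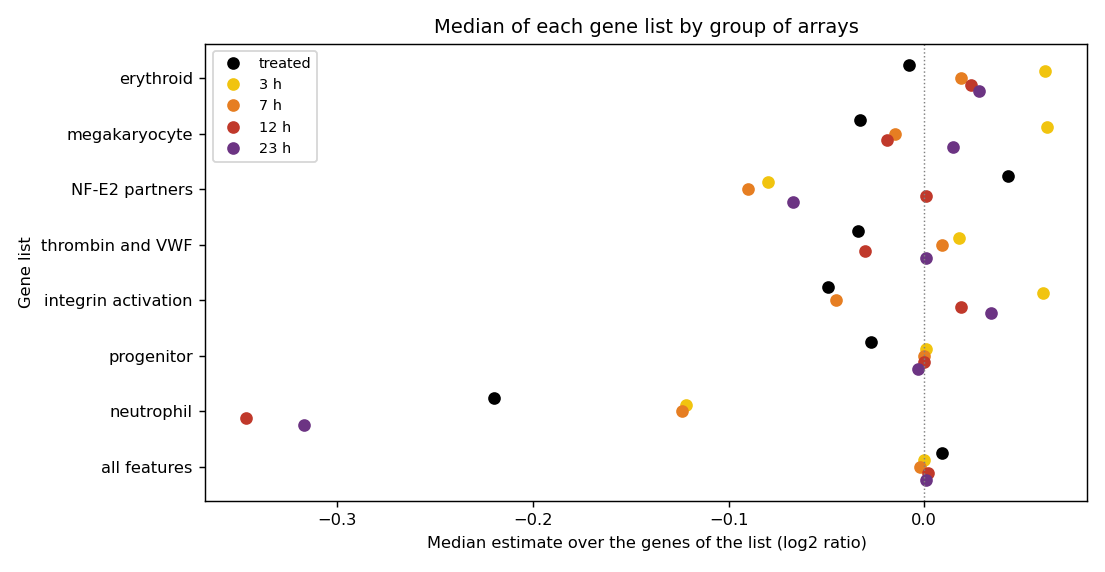
Median limma estimate (horizontal axis, log2 ratio) of the genes of each list (rows), with 1 point for each of the 5 groups of arrays, and all features in the last row. The members described here are left out of the lists. All arrays are used. The erythroid and megakaryocyte medians lie between -0.03 and 0.06, and the neutrophil medians between -0.35 and -0.12.

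For each gene, the 3 named genes with the most similar ratios over the arrays were sought by Pearson correlation among 9509 genes, after the dye term was removed. Arrays of a group share a second RNA, so these values describe likeness only. They are the highest of 9509 by choice, differences between groups were not removed, and no chance level was worked out. Hba-a1 was most like Gfpt1 (r = 0.75), Epha6 (r = 0.74) and Porcn (r = 0.74), and Nfe2 was most like Pip5kl1 (r = 0.84), Snx7 (r = 0.83) and Ndufs7 (r = 0.82), over 19 arrays. Itga2b was most like Tmem135 (r = 0.87), Ccdc58 (r = 0.86) and Cep250 (r = 0.85), over 19 arrays. Vwf was most like Hdac6 (r = 0.88), Slc16a8 (r = 0.84) and Aldh3b1 (r = 0.84), and F2r was most like Pdcd1 (r = 0.81), Snrnp27 (r = 0.76) and Mnat1 (r = 0.75), over 19 arrays. Gp5 was most like Spata33 (r = 0.96 over 18 arrays), Ihh (r = 0.94 over 19) and Mical1 (r = 0.94 over 19), values set by the treated arrays: over the time course alone they were 0.68, 0.24 and 0.50. None of these 18 genes is among the erythroid and megakaryocyte lists used here.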

How the data were processed

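Each spot had 1 ratio that the authors deposited on a log scale, read here as log2. Per the labels' protocols, cDNA made from total RNA took up the dye, Cy3 or Cy5, in a second step. The same protocols speak of organs and pooled control animals, which do not match a cell line. The scanner, its software and any normalization were not stated in the labels or files used.

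Deposited signs were kept. The repeated extreme value of each array was set to missing, arrays were centred on their medians, and probes of 1 gene were averaged, giving 16148 features. Of 20205 probes, 13891 had 1 gene symbol (13855 matched to RefSeq by gene ID), 5 several and 6309 none, per the platform annotation. limma 3.58.1 (R 4.3.3) tested each ratio against 0 with a dye term, in the 4 treated and the 15 time-course arrays separately. A feature needed values on 3 of 4 arrays, or 2 of 3. Benjamini-Hochberg adjustment ran over all features, at 0.05. Exact permutation tests between times used scipy 1.17.1. The number of arrays limits the precision. The fits were tested on simulated data, where false calls stayed near the threshold if a feature had 1 spread (3.33% to 7.5% of calls). Where each group had its own spread, the false share in the time course exceeded the threshold. It was 19.1% at 3 h, 31.2% at 7 h, 21.8% at 12 h, 41.6% at 23 h and 13.2% over the 4 times. Genes that passed without the arrays in doubt came from a fit of the same form, so the false share among them may also exceed the threshold. Known changes in the simulations had a size of 1 or 2. The treated fit recovered few of those of size 1, which is near the Gp5 estimate. So 0 calls in the treated cells do not show that no such change was present. The time-course fit recovered most changes of size 1. The genes described here had smaller estimates at those times, such as -0.28 for Hba-a1 at 3 h. Changes of that size were not simulated, so 0 calls in the time course do not show that they were absent.

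The members and gene lists were chosen with earlier results of these data known. From each list the text names, at most, the 2 genes with the smallest p in the treated cells and the 2 over the 4 times; Hba-x was chosen after its values were seen, as were Clec1b in the treated cells and at 12 h, Car1 and Kel at 23 h, genes passing without the arrays in doubt, and Nfe2l1 at 3 h. For likeness, the 3 genes with the highest Pearson correlation and values on at least 17 arrays are named. Alternatives covered signs, arrays, dye term, weights, normalization, extreme values, probes, filter, replicate block and each array left out.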

Additional observations from a re-analysis of the deposited data

Results flagged for a closer look

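Vwf on treated replicate 1 stood at 0.377 and the other 3 treated arrays between 0.02 and 0.06, so the gap to the nearest array was 0.882 of the range of the group. Of 24 groups of 4 arrays tested in this way 1 stood out, and chance alone marks about 1 in 20.

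Nfe2 at 23 h minus 3 h differed by -0.218: all 3 arrays at 23 h were below 0 and all 4 at 3 h were above 0. Replicates 3 and 4 at 3 h, both Cy3 arrays, stood at only 0.009 and 0.004. The exact two-sided permutation p was 0.0571, the smallest that 3 arrays against 4 can give, and 0.617 after adjustment over 36 comparisons. The pair was flagged because its arrays lay on opposite sides of 0. That alone fixes the unadjusted p-value, so it adds nothing to the flag. The 23 h arrays include replicate 3, whose sign is in doubt: with it turned round the 3 arrays would lie on both sides of 0, and the fitted 23 h minus 3 h difference was -0.13 with both signs in doubt changed and -0.21 without both arrays.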

How the results depend on the processing

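Over the alternative settings, the adjusted p of 1 of the 6 genes passed the threshold once: Gp5 in the treated cells in 1 fit over all arrays (0.0162), a fit that called 773 features there against 0. Hba-a1 over the 4 times kept its sign in all 33 alternatives (-0.29 to -0.06, adjusted p 0.0572 to 0.924). The alternatives chosen after seeing the data were the median of the probes, Hba-a1 without its widest probe, the sign of 7 h replicate 4 changed, the signs of both arrays in doubt changed, and array weights with the Cy3 signs changed. Features called numbered 3 at 12 h and 0 elsewhere. At 12 h they numbered 20 with array weights, 5 for each probe on its own, 1 with only Cy3 arrays, 0 with only Cy5 arrays, 0 with the extreme values kept and 0 with a value on every array. Cy5 arrays alone gave 3 at 3 h, 3 at 7 h, 17 at 23 h, 62 over the 4 times, 3 late against early and 12 at 23 h against 3 h. Cy3 signs changed gave 2 over the 4 times and 2 late against early, and with array weights also 396 at 12 h, 56 over the 4 times and 2 late against early. Without both arrays in doubt the counts were 16, 77, 42 and 59 at 3, 7, 12 and 23 h, 354 over the 4 times, 2 late against early and 13 at 23 h against 3 h. With the sign of 7 h replicate 4 changed they were 19 at 3 h, 78 at 7 h, 103 over the 4 times, 5 late against early and 4 at 23 h against 3 h. With both signs changed they were 33, 203, 61 and 129 at the 4 times, 533 over them, 22 late against early and 21 at 23 h against 3 h. With 1 array left out they ranged from 0 to 11 at 3 h, 0 to 13 at 7 h, 0 to 10 at 12 h, 0 to 1 at 23 h, 0 to 69 over the 4 times, 0 to 3 late against early and 0 to 3 at 23 h against 3 h; the 11, 13 and 69 came without 7 h replicate 4, and 15 over the 4 times without 23 h replicate 3. The cause of these differences was not tested. Replicate numbers are shared between times only as numbers: deviations of same-numbered arrays correlated at -0.12 on average over 21 pairs, and those of other arrays of the same dye at -0.097. The fit with the replicate block called 3 features at 12 h and 0 elsewhere in the time course, as the fit with the dye term did.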
